A study of Mus musculus with 9 samples.

Results

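In stimulated mouse B-lymphoma cells, 62 genes that were already expressed under DMSO stood higher in every library treated with an inhibitor of EZH2. They were chosen from the deposited gene counts by an arithmetic rule on CPM, counts scaled to a common library size. A gene needed a mean of at least 5 CPM over the 3 DMSO libraries, and its lowest value among the 6 inhibitor libraries had to be at least 1.7 times its highest DMSO value. Of 45361 rows in the table, 9487 reached the DMSO level and 69 met both conditions. Rows without a symbol, solute carriers, Zfp and Gbp genes and 6 further named genes were then left out, which removed 7 rows (Apoe, Slc1a3, Fcer2a, Gbp3, Cish, Lgals3bp and Bach2) and gave the 62 genes. All 62 were among the 12580 genes tested. Because the rule used both comparisons with DMSO, the rise itself is a description and carries no test here.

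The cells were CH12F3, a mouse B-lymphoma line used to study antibody class switching in culture. Every group carried a Ligase4 knockout, which removes the DNA ligase of classical end joining, and received 24 h of stimulation by anti-CD40 together with IL-4 and TGF-β. The groups differed in DMSO, tazemetostat or valemetostat, with 3 libraries each. Tazemetostat inhibits EZH2, and valemetostat inhibits EZH1 and EZH2. The labels give no dose, no length of exposure to the inhibitors and no number of knockout clones, so the doses may not be matched in strength. The labels do not say whether the libraries of a group came from separate cultures, so p-values reflect library-to-library spread alone, part of which may be technical. Library totals ran from 34080504 to 46675110 counts, and 3 counts were worth 0.0643 to 0.088 CPM. Lig4, the targeted gene, had 21 to 59 counts per library, and since all groups carry the knockout it does not check the group labels.

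EZH2 and its relative EZH1 are the catalytic subunits of Polycomb repressive complex 2 (PRC2), which methylates histone H3 on lysine 27. The trimethylated form of this mark sits over the promoters of many silent or weakly transcribed genes and is bound by some forms of Polycomb repressive complex 1 (PRC1). In B cells EZH2 is best known for its role in germinal centres, where it restrains cell cycle inhibitors and differentiation genes. No histone mark was measured in the data described here.

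Under DMSO the 62 genes spanned mean levels from 5.59 CPM (Tspan9) to 137 CPM (Tnni1), with a median of 12.9 CPM. Their median rose to 34.6 CPM with tazemetostat and 36.1 CPM with valemetostat. Summed over the 62 genes, they took 0.125 to 0.129% of each DMSO library's counts, 0.316 to 0.326% with tazemetostat and 0.317 to 0.337% with valemetostat. Where a pair of folds is given in what follows, both are ratios of mean CPM to DMSO, tazemetostat first and valemetostat second, and an error after a log2 fold change is its SE. The fitted log2 fold changes had a median of 1.24 with tazemetostat and ranged from 0.87 (Pllp) to 3.37 (Vcam1). With valemetostat the median was 1.26, from 0.93 (Myo6) to 3.35 (Vcam1). Over all tested genes both medians were near 0 (0.00 with tazemetostat and 0.01 with valemetostat). All 62 passed the edgeR test as higher in both comparisons, as the rule all but requires; 19.9% of tested genes were called higher with tazemetostat and 20.5% with valemetostat (38.1% and 39.2% in either direction). The ratio of the lowest inhibitor value to the highest DMSO value was at least 2 in 32 genes and at least 3 in 6, so few of the genes reached 3 by this measure. In bulk RNA, a change in the fraction of cells that transcribe a gene and a change in RNA per cell cannot be told apart.

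The folds of the 62 genes, which the rule used together with the DMSO level, are given by that level as a description. The 20 genes between 5 and 10 CPM under DMSO had a median log2 fold change of 1.42 with tazemetostat, the 25 between 10 and 20 CPM one of 1.21, the 13 between 20 and 50 CPM one of 1.06 and the 4 above 50 CPM one of 1.17. The median coefficient of variation within a group, over the 62 genes, was 7.2% under DMSO, 5.15% with tazemetostat and 6.28% with valemetostat. The rule favours genes whose spread is small beside their change, so these values are a description too. One library stood slightly above the others in each inhibitor group. Tazemetostat library 1 was the highest of its group for 30 of the 62 genes, and valemetostat library 3 for 35.

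**Figure D1:**
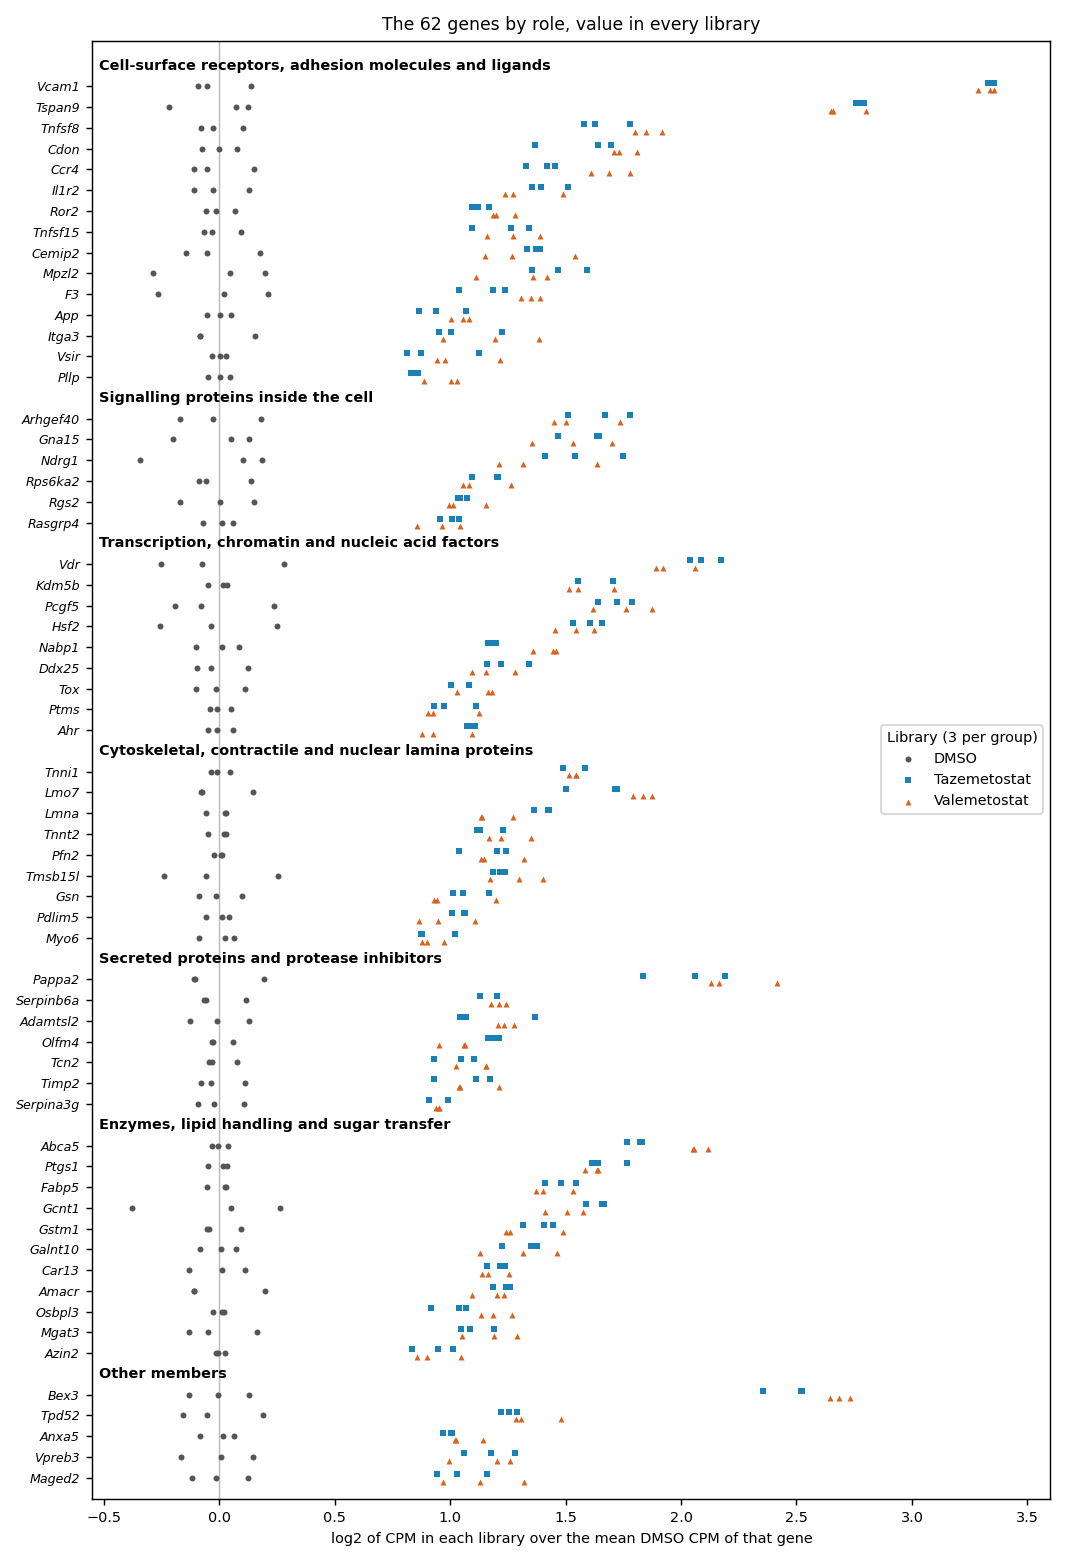
Each row is 1 of the 62 genes, grouped by role, and each point is 1 library (3 per group); the horizontal axis is log2 of the library's CPM over the gene's mean DMSO CPM. Every inhibitor point lies to the right of every DMSO point, as the rule demands; Vcam1, Tspan9 and Bex3 lie furthest right, and tazemetostat and valemetostat points mostly interleave.

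Promoter sequences were drawn on for the genes that changed most or lie near one another. RefSeq entries of build GRCm38.p6, which cover 250 bases before to 50 bases after the first listed start of a gene, were matched by symbol for 48 of the 62 genes. No entry was matched for Ahr, Amacr, Azin2, Car13, Cemip2, Fabp5, Mgat3, Mpzl2, Ndrg1, Rasgrp4, Tcn2, Tox, Tpd52 and Vcam1. The deposited data are on mm9, so these coordinates belong to the reference alone. The 8 windows below were picked from genes that rose furthest (Tspan9, Bex3, Abca5, Pappa2) or lie beside or near another of the 62 genes (Tnfsf15 and Tnfsf8, Tnni1 and Tnnt2). Cdon, Ddx25 and Tmsb15l also lie beside or near another of the 62 genes and had entries, but their windows are not printed. Capitals mark the dinucleotide CG, which is the same on both strands and is frequent in CpG islands, the sequence class to which PRC2 is known to be recruited.

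Printed in the direction of transcription, with the strand in parentheses, the windows are Tspan9 at chr6:128143529-128143828 (-), Bex3 at chrX:136270003-136270302 (+), Abca5 at chr11:110337667-110337966 (-), Pappa2 at chr1:158958126-158958425 (-), Tnfsf15 at chr4:63745010-63745309 (-), Tnfsf8 at chr4:63861235-63861534 (-), Tnni1 at chr1:135799171-135799470 (+) and Tnnt2 at chr1:135836084-135836383 (+).
Tspan9: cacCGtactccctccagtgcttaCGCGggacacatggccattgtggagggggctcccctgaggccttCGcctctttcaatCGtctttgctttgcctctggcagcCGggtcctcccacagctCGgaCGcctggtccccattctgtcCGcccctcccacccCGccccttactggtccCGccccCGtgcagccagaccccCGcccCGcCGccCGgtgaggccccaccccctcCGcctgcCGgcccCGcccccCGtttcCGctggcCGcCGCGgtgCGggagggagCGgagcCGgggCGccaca
Bex3: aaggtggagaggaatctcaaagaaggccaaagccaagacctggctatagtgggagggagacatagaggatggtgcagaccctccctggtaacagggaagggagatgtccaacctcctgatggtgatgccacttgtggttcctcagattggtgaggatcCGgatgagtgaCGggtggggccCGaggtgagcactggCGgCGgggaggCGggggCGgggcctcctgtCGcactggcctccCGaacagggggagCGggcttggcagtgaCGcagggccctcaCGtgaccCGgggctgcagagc
Abca5: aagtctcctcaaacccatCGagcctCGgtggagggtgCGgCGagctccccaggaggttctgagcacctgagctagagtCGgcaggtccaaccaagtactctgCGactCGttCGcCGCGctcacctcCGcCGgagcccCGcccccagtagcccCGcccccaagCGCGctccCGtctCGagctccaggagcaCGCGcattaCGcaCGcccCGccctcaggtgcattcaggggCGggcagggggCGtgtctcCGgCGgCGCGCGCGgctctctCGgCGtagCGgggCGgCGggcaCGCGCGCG
Pappa2: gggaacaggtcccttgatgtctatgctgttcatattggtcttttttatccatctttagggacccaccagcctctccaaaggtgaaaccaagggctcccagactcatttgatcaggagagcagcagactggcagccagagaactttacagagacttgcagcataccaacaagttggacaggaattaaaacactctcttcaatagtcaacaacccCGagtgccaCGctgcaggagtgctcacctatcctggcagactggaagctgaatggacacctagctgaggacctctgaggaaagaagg
Tnfsf15: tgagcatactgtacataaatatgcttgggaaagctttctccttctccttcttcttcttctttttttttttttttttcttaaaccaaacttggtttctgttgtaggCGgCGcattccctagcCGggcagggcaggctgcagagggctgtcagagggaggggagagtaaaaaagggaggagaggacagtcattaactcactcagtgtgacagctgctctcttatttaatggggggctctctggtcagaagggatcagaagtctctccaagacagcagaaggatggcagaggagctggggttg
Tnfsf8: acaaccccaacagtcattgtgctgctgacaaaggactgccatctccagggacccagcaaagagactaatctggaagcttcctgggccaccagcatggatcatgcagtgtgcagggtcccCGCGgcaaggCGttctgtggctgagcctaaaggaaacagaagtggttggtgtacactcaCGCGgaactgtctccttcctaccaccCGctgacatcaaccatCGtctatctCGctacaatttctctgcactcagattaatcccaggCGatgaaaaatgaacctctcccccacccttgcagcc
Tnni1: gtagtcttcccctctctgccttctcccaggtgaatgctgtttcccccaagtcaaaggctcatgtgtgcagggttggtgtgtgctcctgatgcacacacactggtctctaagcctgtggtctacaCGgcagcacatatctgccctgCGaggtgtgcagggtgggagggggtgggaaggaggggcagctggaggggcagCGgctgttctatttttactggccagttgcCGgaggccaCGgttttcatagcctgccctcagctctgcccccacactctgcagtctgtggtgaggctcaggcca
Tnnt2: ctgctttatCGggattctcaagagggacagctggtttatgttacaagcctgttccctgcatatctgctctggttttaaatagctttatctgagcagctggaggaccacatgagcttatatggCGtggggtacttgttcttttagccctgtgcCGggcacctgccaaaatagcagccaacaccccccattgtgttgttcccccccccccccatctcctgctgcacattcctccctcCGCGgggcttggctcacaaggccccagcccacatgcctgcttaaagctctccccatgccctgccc

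The windows differed widely in CG content. The Abca5 window held 40 CG and the Tspan9 window 28, against 13 in Bex3, 9 in Tnfsf8, 5 in each of the troponin genes, 3 in Tnfsf15 and 2 in Pappa2. Tspan9 has 4 listed starts and Tnni1 and Tnnt2 have 2 each, of which only the first was read. The start used in these cells was not determined. The windows of Cdon, Ddx25 and Tmsb15l, which are not printed, held 3, 41 and 6 CG. Over the 48 matched genes the number ran from 1 (Lmna) to 45 (Pfn2). Among the 9529 tested genes with an entry, 70.1% held at least 15 CG in a window of this length and 11% held 5 or fewer. Genes that rose furthest were found at both ends of this range, since Abca5 moved by 3.50-fold and 4.22-fold and Pappa2 by 4.10-fold and 4.73-fold. Fewer than 80% of the 62 genes had an entry, so a comparison of the set with other genes is void and none is given.

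Cell-surface proteins and their ligands made up 15 of the 62 genes, with median log2 fold changes of 1.40 with tazemetostat and 1.35 with valemetostat. Vcam1, an adhesion molecule bound by integrins on leukocytes and best known from endothelium and lymphoid stroma, had the largest change of the 62. It was at 9.64, 9.92 and 11.3 CPM in DMSO libraries 1 to 3, at 104, 105 and 103 CPM with tazemetostat and at 104, 105 and 100.4 CPM with valemetostat. The 6 inhibitor libraries lay close together and far above all DMSO libraries.

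Its log2 fold change was 3.37 ± 0.07 with tazemetostat and 3.35 ± 0.07 with valemetostat, or 10.1-fold and 10-fold on mean CPM. Tspan9, a tetraspanin that organises membrane proteins, was at 5.87, 4.81 and 6.09 CPM in DMSO libraries 1 to 3, at 38.5, 38.7 and 37.8 CPM with tazemetostat and at 35.4, 35.1 and 39.0 CPM with valemetostat. It had the lowest DMSO mean of all 62 genes and the next largest fold, 6.86-fold and 6.53-fold. Its log2 fold change was 2.80 ± 0.09 with tazemetostat and 2.72 ± 0.09 with valemetostat.

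Both TNF superfamily ligands in the set, Tnfsf8 and Tnfsf15, sit side by side on chromosome 4. Tnfsf8, the ligand of CD30, was at 9.96, 11.3 and 10.3 CPM in DMSO libraries 1 to 3, at 36.1, 31.4 and 32.5 CPM with tazemetostat and at 39.7, 37.9 and 36.7 CPM with valemetostat. Tnfsf15, also called TL1A and the ligand of DR3, was at 41.0, 45.8 and 42.0 CPM in DMSO libraries 1 to 3, at 109, 103 and 91.7 CPM with tazemetostat and at 104, 96.0 and 113 CPM with valemetostat. Tnfsf8 moved further (3.17-fold and 3.62-fold) than Tnfsf15 (2.36-fold and 2.42-fold). Receptors of soluble ligands were present too. Ccr4, the receptor of CCL17 and CCL22, was at 7.61, 7.89 and 9.10 CPM in DMSO libraries 1 to 3, at 21.9, 20.6 and 22.4 CPM with tazemetostat and at 28.1, 25.1 and 26.4 CPM with valemetostat. Il1r2, a decoy receptor that binds interleukin 1 without signalling, was at 14.2, 13.4 and 15.8 CPM in DMSO libraries 1 to 3, at 41.2, 38.0 and 36.9 CPM with tazemetostat and at 34.9, 34.05 and 40.6 CPM with valemetostat. Ror2, a receptor tyrosine kinase for WNT5A, rose 2.19-fold and 2.33-fold on mean CPM. For Ccr4 the valemetostat libraries were all above the tazemetostat libraries, whereas those of Il1r2 overlapped.

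Cdon, a co-receptor of hedgehog ligands, was among the 3 genes nearest the DMSO floor. It was at 5.63, 6.25 and 5.92 CPM in DMSO libraries 1 to 3, at 18.5, 19.3 and 15.3 CPM with tazemetostat and at 20.8, 19.7 and 19.4 CPM with valemetostat. F3, tissue factor, which starts blood coagulation, was also near the floor and was at 6.73, 4.84 and 5.90 CPM in DMSO libraries 1 to 3, at 13.2, 13.7 and 11.9 CPM with tazemetostat and at 14.8, 15.2 and 14.4 CPM with valemetostat. In CPM the valemetostat libraries of both genes lay above their tazemetostat libraries, and neither difference was called (edgeR adjusted p = 0.707 for Cdon and 0.735 for F3). In the deposited TPM the order turned for Cdon, with means of 3.98 ± 1.29 with tazemetostat and 3.58 ± 0.28 with valemetostat (SD, n = 3). Mpzl2, an immunoglobulin-like adhesion protein, was 2.78-fold and 2.47-fold higher, Cemip2, a transmembrane protein linked to hyaluronan turnover, 2.58-fold and 2.51-fold, and App, the amyloid precursor protein, 1.94-fold and 2.07-fold.

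Itga3, the integrin alpha 3 chain that pairs with beta 1 to bind laminins, was at 7.84, 6.66 and 6.66 CPM in DMSO libraries 1 to 3, at 16.5, 14.1 and 13.6 CPM with tazemetostat and at 13.8, 16.1 and 18.4 CPM with valemetostat. Vsir, which encodes the checkpoint protein VISTA, was at 6.47, 6.31 and 6.57 CPM in DMSO libraries 1 to 3, at 14.1, 11.8 and 11.3 CPM with tazemetostat and at 12.7, 12.4 and 14.96 CPM with valemetostat. Pllp, plasmolipin, a membrane protein of myelin and epithelia, was at 11.5, 11.1 and 11.9 CPM in DMSO libraries 1 to 3, at 20.5, 20.9 and 20.7 CPM with tazemetostat and at 21.2, 23.1 and 23.5 CPM with valemetostat. These 3 genes lay just inside the rule, with ratios of 1.74, 1.73 and 1.72. In the deposited TPM the same ratios were 1.73, 1.05 and 1.30.

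The 6 signalling proteins inside the cell had median log2 fold changes of 1.40 with tazemetostat and 1.29 with valemetostat. Arhgef40, a guanine nucleotide exchange factor, was at 9.51, 7.45 and 8.23 CPM in DMSO libraries 1 to 3, at 28.8, 26.8 and 23.9 CPM with tazemetostat and at 23.8, 22.9 and 27.9 CPM with valemetostat. Rasgrp4, an exchange factor of Ras best known from mast cells, was at 9.92, 9.60 and 9.07 CPM in DMSO libraries 1 to 3, at 19.6, 19.2 and 18.5 CPM with tazemetostat and at 18.6, 17.3 and 19.6 CPM with valemetostat. Arhgef40 moved further (3.16-fold and 2.97-fold) than Rasgrp4 (2-fold and 1.94-fold).

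In the reference annotation both genes have exons that overlap an expressed gene on the opposite strand (Zfp219 and Fam98c), so their counts are uncertain where the counting did not use strand. Gna15, a G protein alpha subunit of blood cells, was 3-fold and 2.90-fold higher. Ndrg1, a gene known for its response to hypoxia and differentiation, was 2.98-fold and 2.64-fold higher, and its DMSO libraries ranged from 6.13 to 8.83 CPM. Rps6ka2, an RSK kinase downstream of ERK, was 2.25-fold and 2.20-fold higher, and Rgs2, which shortens G protein signals, 2.07-fold and 2.08-fold. Kinases, exchange factors and G protein components of this group all lay between 1.94-fold and 3.16-fold.

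Transcription, chromatin and nucleic acid factors numbered 9, with median log2 fold changes of 1.27 with tazemetostat and 1.44 with valemetostat. Vdr, the vitamin D receptor, was at 7.26, 5.02 and 5.67 CPM in DMSO libraries 1 to 3, at 24.6, 26.96 and 25.4 CPM with tazemetostat and at 22.7, 22.2 and 24.9 CPM with valemetostat. Kdm5b, a demethylase of histone H3 lysine 4, was at 11.3, 11.4 and 10.8 CPM in DMSO libraries 1 to 3, at 36.4, 32.8 and 32.8 CPM with tazemetostat and at 32.8, 31.8 and 36.5 CPM with valemetostat. Pcgf5, a RING finger subunit of a variant PRC1, was at 5.89, 7.34 and 5.45 CPM in DMSO libraries 1 to 3, at 21.5, 20.6 and 19.4 CPM with tazemetostat and at 22.8, 19.1 and 21.1 CPM with valemetostat. All 3 genes stood at low levels under DMSO and moved by 4.29-fold and 3.89-fold, 3.04-fold and 3.02-fold and 3.29-fold and 3.37-fold.

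Hsf2, a heat shock transcription factor, was 3.03-fold and 2.91-fold higher. Tox, an HMG-box factor known from T cell development and exhaustion, was at 20.8, 22.0 and 24.1 CPM in DMSO libraries 1 to 3, at 47.2, 44.6 and 44.7 CPM with tazemetostat and at 50.5, 45.5 and 50 CPM with valemetostat. Ahr, the aryl hydrocarbon receptor, was at 58.2, 62.7 and 59.9 CPM in DMSO libraries 1 to 3, at 127, 129.8 and 128 CPM with tazemetostat and at 111, 114 and 129 CPM with valemetostat. Ahr and Tox moved by 2.13-fold and 1.96-fold and 2.04-fold and 2.18-fold. Nabp1, which binds single-stranded DNA, was 2.26-fold and 2.68-fold higher, Ddx25, an RNA helicase of testis, 2.36-fold and 2.26-fold, and Ptms, parathymosin, 2.01-fold and 1.98-fold.

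Contractile, cytoskeletal and lamina proteins supplied 9 genes, among them a pair of troponins. Tnni1, the slow skeletal muscle troponin I, was at 134, 137 and 142 CPM in DMSO libraries 1 to 3, at 385, 386 and 412 CPM with tazemetostat and at 393, 402 and 401 CPM with valemetostat. Tnnt2, the cardiac troponin T, was at 16.8, 15.9 and 16.7 CPM in DMSO libraries 1 to 3, at 38.5, 35.6 and 36.0 CPM with tazemetostat and at 41.9, 36.9 and 38.3 CPM with valemetostat. Gsn, gelsolin, which severs actin filaments, was at 90.7, 86.1 and 98.2 CPM in DMSO libraries 1 to 3, at 206, 191 and 185 CPM with tazemetostat and at 175, 176 and 211 CPM with valemetostat. The change of Tnni1 (2.87-fold and 2.90-fold) exceeded those of Tnnt2 (2.23-fold and 2.37-fold) and Gsn (2.12-fold and 2.04-fold).

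Lmo7, a LIM domain protein at cell junctions and actin, was 3.14-fold and 3.56-fold higher. Lmna, which encodes lamins A and C of the nuclear envelope, was 2.65-fold and 2.27-fold higher. Pfn2, a profilin that binds actin monomers, was 2.24-fold and 2.30-fold higher, Pdlim5, a PDZ and LIM protein, 2.06-fold and 1.97-fold, and Myo6, a myosin that moves toward minus ends of actin filaments, 1.90-fold and 1.89-fold. Tmsb15l, a beta-thymosin, was at 15.2, 13.3 and 18.8 CPM in DMSO libraries 1 to 3, at 36.6, 37.2 and 35.9 CPM with tazemetostat and at 41.6, 38.7 and 35.5 CPM with valemetostat. Its DMSO libraries were uneven, and its exons overlap Tmsb15b1 and Tmsb15b2 on the same strand in the reference annotation, so its level is uncertain.

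Secreted proteins and protease inhibitors formed a group of 7. Pappa2, a metalloprotease that cleaves insulin-like growth factor binding proteins, was at 29.3, 36.2 and 29.4 CPM in DMSO libraries 1 to 3, at 144, 132 and 113 CPM with tazemetostat and at 142, 139 and 169 CPM with valemetostat. Its inhibitor libraries were uneven, yet each was at least 3.11 times the highest DMSO library. Serpina3g, a serine protease inhibitor of lymphoid and myeloid cells, was at 37.7, 35.9 and 41.2 CPM in DMSO libraries 1 to 3, at 71.9, 71.9 and 76.0 CPM with tazemetostat and at 74.2, 74.1 and 73.4 CPM with valemetostat. It lay just inside the rule with a ratio of 1.74 and had almost equal values in all 6 inhibitor libraries. Olfm4, olfactomedin 4, was at 65.5, 65.5 and 69.6 CPM in DMSO libraries 1 to 3, at 149.7, 155 and 152 CPM with tazemetostat and at 139, 139.9 and 129 CPM with valemetostat. Every Olfm4 library with valemetostat was below every library with tazemetostat.

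Serpinb6a, a serpin inside the cell, was 2.26-fold and 2.31-fold higher, with exons that overlap Nqo2 and Ripk1 on the opposite strand. Adamtsl2, a matrix protein, was 2.24-fold and 2.36-fold higher, Timp2, an inhibitor of matrix metalloproteinases, 2.10-fold and 2.14-fold, and Tcn2, the cobalamin carrier transcobalamin, 2.04-fold and 2.16-fold.

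Enzymes and proteins of lipid and sugar handling made up 11 genes, with median log2 fold changes of 1.34 with tazemetostat and 1.32 with valemetostat. Abca5, an ATP-binding cassette transporter of lysosomes and endosomes, was at 13.8, 14.2 and 13.5 CPM in DMSO libraries 1 to 3, at 49.0, 49.2 and 47.1 CPM with tazemetostat and at 60.1, 57.5 and 57.6 CPM with valemetostat. Ptgs1, cyclooxygenase 1, which makes the precursor of prostaglandins, was at 23.2, 24.6 and 24.3 CPM in DMSO libraries 1 to 3, at 73.5, 81.7 and 75.0 CPM with tazemetostat and at 74.7, 74.8 and 72.0 CPM with valemetostat. Fabp5, a fatty acid binding protein, was at 42.0, 44.3 and 44.3 CPM in DMSO libraries 1 to 3, at 121, 116 and 127 CPM with tazemetostat and at 115, 113 and 126 CPM with valemetostat. Ptgs1 and Fabp5 had overlapping libraries between the inhibitors, whereas every Abca5 library with valemetostat was above those with tazemetostat.

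Enzymes that build glycans were Gcnt1, which starts core 2 branches on O-glycans (3.11-fold and 2.83-fold higher), Galnt10, which adds the first O-linked sugar (2.49-fold and 2.48-fold), and Mgat3, which adds the bisecting residue of N-glycans (2.16-fold and 2.27-fold). Osbpl3, an oxysterol-binding protein relative, was 2.01-fold and 2.29-fold higher, and Amacr, a racemase of branched fatty acids, 2.34-fold and 2.26-fold. Gstm1, a glutathione transferase, was 2.62-fold and 2.52-fold higher, Car13, a carbonic anhydrase, 2.30-fold and 2.28-fold, and Azin2, an antizyme inhibitor, 1.91-fold and 1.91-fold.

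Of the 5 other genes, Bex3 changed most. Bex3, an X-linked adaptor that binds the p75 neurotrophin receptor, was at 11.4, 9.54 and 10.4 CPM in DMSO libraries 1 to 3, at 59.9, 53.5 and 60.2 CPM with tazemetostat and at 65.5, 67.2 and 69.5 CPM with valemetostat. Anxa5, annexin A5, which binds phosphatidylserine, was at 46.1, 43.0 and 47.7 CPM in DMSO libraries 1 to 3, at 91.3, 91.6 and 89.3 CPM with tazemetostat and at 92.8, 92.5 and 101 CPM with valemetostat. Vpreb3, a small protein that associates with immunoglobulin chains in B lineage cells, was at 10.4, 9.21 and 11.5 CPM in DMSO libraries 1 to 3, at 21.6, 23.4 and 25.2 CPM with tazemetostat and at 20.6, 23.9 and 24.8 CPM with valemetostat. Bex3 moved by 5.53-fold and 6.44-fold, far more than Anxa5 (1.99-fold and 2.09-fold) and Vpreb3 (2.26-fold and 2.23-fold), and its valemetostat libraries were all above its tazemetostat libraries. Tpd52, a coiled-coil protein of vesicle traffic, was 2.39-fold and 2.57-fold higher, and Maged2, a MAGE family protein, 2.07-fold and 2.21-fold.

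Levels of different genes can be compared only per transcript length, for which the deposited log2 table gives TPM, transcripts scaled for length and to a common total. On that scale Tnni1 was the most abundant of the 62 genes under DMSO at 213 ± 7.94 TPM (SD, n = 3). Ptms followed at 83.9 ± 2.06 TPM and Fabp5 at 77.2 ± 3.31 TPM. Gsn was at 53.3 ± 1.99 TPM, Anxa5 at 39.5 ± 1.04 TPM, Serpina3g at 38.3 ± 2.07 TPM, Vpreb3 at 38.1 ± 3.22 TPM and Tmsb15l at 37.1 ± 5.72 TPM. The last 4 of these lay within their spread of one another. At the other end, 23 of the 62 genes had a mean DMSO level under 5 TPM, among them Vcam1 at 4.21 ± 0.31 TPM and Cdon at 1.5 ± 0.436 TPM.

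Ptms was at 40.6, 39.0 and 38.2 CPM in DMSO libraries 1 to 3, at 74.8, 77.0 and 84.9 CPM with tazemetostat and at 73.6, 74.7 and 85.7 CPM with valemetostat. Its values in the third library of each inhibitor group were above those of the other libraries of the group. All 62 genes are protein coding, with a median transcript length of 3883.5 nt against 3240.5 nt for the 12554 tested genes that have a length, and a median transcript GC content of 49.0% against 49.8%.

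The deposited TPM values gave a smaller rise for many of the genes. By the same ratio, 44 of the 62 genes reached 1.7 in TPM and 18 did not. No gene fell to a ratio of 1 or less, but Vsir was at 1.05, Pllp at 1.30, Rasgrp4 at 1.36, Rgs2 at 1.38 and Ndrg1 at 1.42. Cdon had one of the larger differences, with a ratio of 2.45 in CPM and 1.56 in TPM. Vcam1 (8.44 in TPM) and Bex3 (4.68) were nearly as high in TPM as in CPM. With limma on log2(TPM + 1), the median log2 fold change of the 62 genes was 1.06 with each inhibitor, and the pseudocount of 1 understates the change of low genes. That scale also moved the median of all tested genes to -0.07 with each inhibitor. Vsir with valemetostat was the only call among the 62 that was lost.

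**Figure D2:**
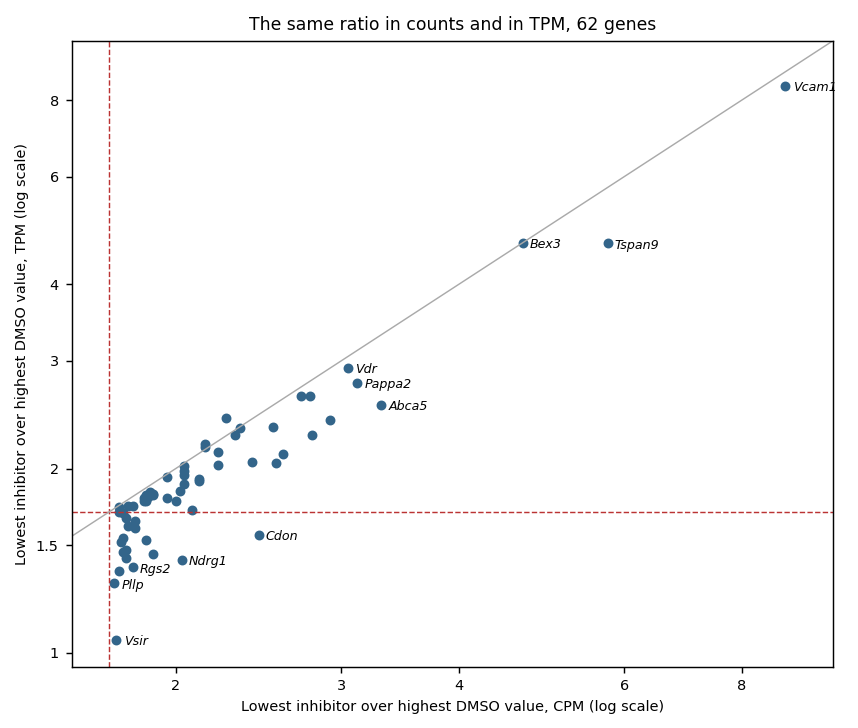
Each point is 1 of the 62 genes; the axes (log scale) give the lowest inhibitor value over the highest DMSO value, in CPM across and in TPM upward, with dashed lines at 1.7 and a grey line of equality. All 62 points lie right of the vertical line by the rule, 18 lie below the horizontal line, and Vsir is lowest at 1.05.

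The thresholds cut through a continuous range of ratios. Just inside were Pllp (1.72), Vsir (1.73), Itga3 (1.74), Rasgrp4 (1.74) and Serpina3g (1.74), and just outside were Tmtc4 (1.69), Maged1 (1.68), Ifi27 (1.67), Adgrl2 (1.66) and Lhpp (1.66). Maged1, a relative of Maged2, was at 89.98, 88.2 and 90.5 CPM in DMSO libraries 1 to 3, at 158, 152 and 154 CPM with tazemetostat and at 154, 153 and 163 CPM with valemetostat. Ifi27, an interferon-induced gene, was at 27.2, 21.5 and 24.7 CPM in DMSO libraries 1 to 3, at 45.9, 45.5 and 50.8 CPM with tazemetostat and at 50.1, 50.2 and 53.0 CPM with valemetostat. Both missed the ratio narrowly. The other 3 genes just outside had mean DMSO levels of 9.11 CPM (Tmtc4), 37.4 CPM (Adgrl2) and 11.9 CPM (Lhpp), and were 2.04-fold and 2.03-fold, 1.86-fold and 1.81-fold and 1.81-fold and 1.87-fold higher. At the DMSO floor, Tspan9, F3 and Cdon were just inside at 5.59, 5.82 and 5.94 CPM. Cd7, an immunoglobulin-like receptor of T and NK cells, missed the floor and was at 4.95, 5.52 and 4.35 CPM in DMSO libraries 1 to 3, at 22.2, 19.9 and 19.3 CPM with tazemetostat and at 19.7, 15.7 and 24.7 CPM with valemetostat. Cdc42ep3 and Tcam1 also missed it, with means of 4.87 and 4.79 CPM and rises of 2.50-fold and 2.03-fold and 2.07-fold and 2.25-fold. The ratio of Cd7 was 2.85, so the floor alone kept it out.

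Valemetostat and tazemetostat were compared directly. The rule did not compare them with each other, but the choice of genes is not independent of this contrast. Every library of both inhibitors had to clear the same bound, so a gene raised less by one inhibitor could be left out. Runx2 rose 2.27-fold and 1.73-fold and missed the rule with a ratio of 1.53. It was called lower with valemetostat (-0.40 ± 0.09, edgeR adjusted p = 0.0363). Few calls among the 62 genes may thus partly follow from the rule. None of the 62 genes differed at an adjusted p under 0.05 in edgeR's quasi-likelihood test, in which 0.318% of the 12580 tested genes were called (40 genes; 0.0636% higher and 0.254% lower with valemetostat). Among genes of at least 5 CPM under DMSO the share called was 0.358% (0.0632% higher and 0.295% lower). Apoe, which met both thresholds and was left out by symbol, was called higher with valemetostat (0.42 ± 0.07, edgeR adjusted p = 0.00759). Bach2, left out in the same way, was not called (-0.27 ± 0.07, edgeR adjusted p = 0.128). The absence of calls thus holds for the 62 genes and not for every row that met the thresholds. At an unadjusted p under 0.05, 10 of the 62 genes (16.1%) differed, against 7.94% of all tested genes. DESeq2 called 2 of the 62 genes, Abca5 and Nabp1. The log2 differences, valemetostat minus tazemetostat, ran from -0.23 (Lmna) to 0.28 (Ccr4), with 31 of 62 above 0. Their median size was 0.07, the same as over all tested genes. The 95% intervals of single genes reached down to -0.44 (Ndrg1) and up to 0.46 (Ccr4).

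Abca5 had the smallest p, with a log2 difference of 0.26 ± 0.06 (SE) and an adjusted p of 0.0554 (edgeR). Over the other settings its adjusted p ran from 0.00578 to 0.934. Its 3 valemetostat libraries (60.1, 57.5 and 57.6 CPM) were all above its 3 tazemetostat libraries (49.0, 49.2 and 47.1 CPM). The 4 genes with the next smallest p are given because of that p, which was seen first. Nabp1 was at 21.3, 22.4 and 19.7 CPM under DMSO, at 47.5, 48.5 and 47.8 under tazemetostat and at 57.6, 54.2 and 58.2 under valemetostat, a difference between the inhibitors of 0.23 ± 0.06 (edgeR adjusted p = 0.148). Lmna was at 17.3, 16.3 and 17.3 CPM under DMSO, at 45.4, 45.6 and 43.7 under tazemetostat and at 37.4, 37.2 and 41.0 under valemetostat, a difference of -0.23 ± 0.07 (edgeR adjusted p = 0.19). Olfm4 and Ccr4, whose values stand above, differed by -0.17 ± 0.05 (edgeR adjusted p = 0.208) and 0.28 ± 0.09 (edgeR adjusted p = 0.255). In each of these 5 genes all 3 libraries of one inhibitor lay beyond all 3 of the other, valemetostat being higher for Abca5, Nabp1 and Ccr4 and lower for Lmna and Olfm4. The remaining 5 at an unadjusted p under 0.05 were Bex3 (0.21 ± 0.07), Osbpl3 (0.18 ± 0.07), Tnfsf8 (0.18 ± 0.07), Ahr (-0.13 ± 0.05) and Lmo7 (0.17 ± 0.08), with edgeR adjusted p-values from 0.277 to 0.561.

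The libraries of the inhibitors did not overlap in CPM for 15 of the 62 genes (24.2%), where 14.2% of tested genes had no overlap. The tested genes include genes under 5 CPM under DMSO. No share matched for level is given for overlap or for unadjusted p, so the excess cannot be ascribed to the 62 genes. Valemetostat was higher in 12 of these (8.55% of tested genes) and lower in 3 (5.66% of tested genes), namely Gcnt1, Lmna and Olfm4. The 12 were Bex3, Abca5, Tnfsf8, Lmo7, Cdon, Ccr4, Nabp1, Ror2, Anxa5, Osbpl3, F3 and Pllp. Valemetostat library 3 was also the highest of its group for 35 of the 62 genes, and its part in these counts was not tested. For Vcam1 the difference was -0.02 ± 0.05 with a 95% interval from -0.13 to 0.09, and for Tnni1 0.00 ± 0.04 with an interval from -0.09 to 0.10. These intervals bound the difference of the most changed and the most abundant gene closely.

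**Figure D3:**
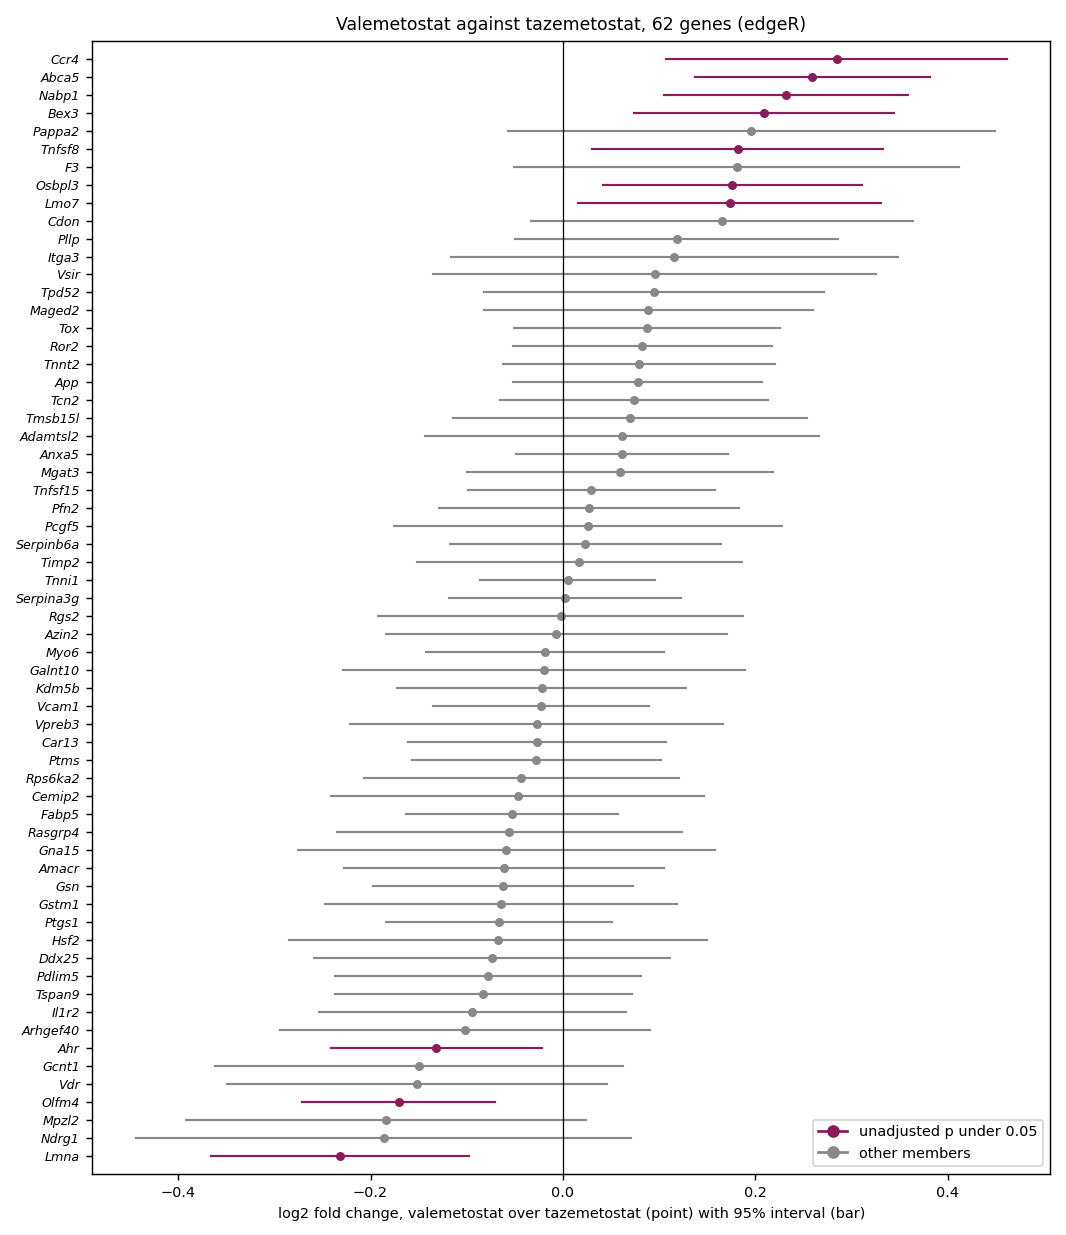
Log2 fold change of valemetostat over tazemetostat for each of the 62 genes (points) with its 95% interval (bars), from edgeR; purple marks the 10 genes at an unadjusted p under 0.05. The points run from -0.23 (Lmna) to 0.28 (Ccr4), most intervals include 0, and none of the 62 passed the adjusted threshold.

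Several of the 62 genes lie close together along the chromosomes in the reference gene order. Tnfsf15 and Tnfsf8 are adjacent tested genes on chromosome 4, and so are Cdon and Ddx25 on chromosome 9. Tnni1 and Tnnt2 on chromosome 1 have 1 tested gene, Lad1, between them, and Tpd52 and Fabp5 on chromosome 3 have Zbtb10 between them. Bex3 and Tmsb15l on chromosome X have 3 tested genes between them. The genes around these pairs were read in the same fit. Around the troponin genes, Lad1 was at a log2 fold change of 1.28 ± 0.15 with tazemetostat (edgeR adjusted p = 1.48e-07), Cacna1s, a muscle calcium channel subunit, at 0.89 ± 0.10 (adjusted p = 9.98e-08) and Tmem9 at 0.52 ± 0.06 (adjusted p = 5.07e-07). Beside Cdon and Ddx25, Rpusd4 was at 0.05 ± 0.07 (adjusted p = 0.622) and Pus3 at -0.08 ± 0.07 (adjusted p = 0.396). Tmem268 beside Tnfsf15 was at 0.03 ± 0.07 (adjusted p = 0.779), and Trim32 beside Tnfsf8 was called lower with tazemetostat, at -0.16 ± 0.05 (adjusted p = 0.0228), and not with valemetostat, at -0.11 ± 0.05 (adjusted p = 0.119). Tlr4, a receptor of bacterial lipopolysaccharide and the next tested gene after Trim32, was called higher with tazemetostat, at 1.36 ± 0.30 (adjusted p = 0.000929), and with valemetostat, at 1.03 ± 0.31 (adjusted p = 0.00906).

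**Figure D4:**
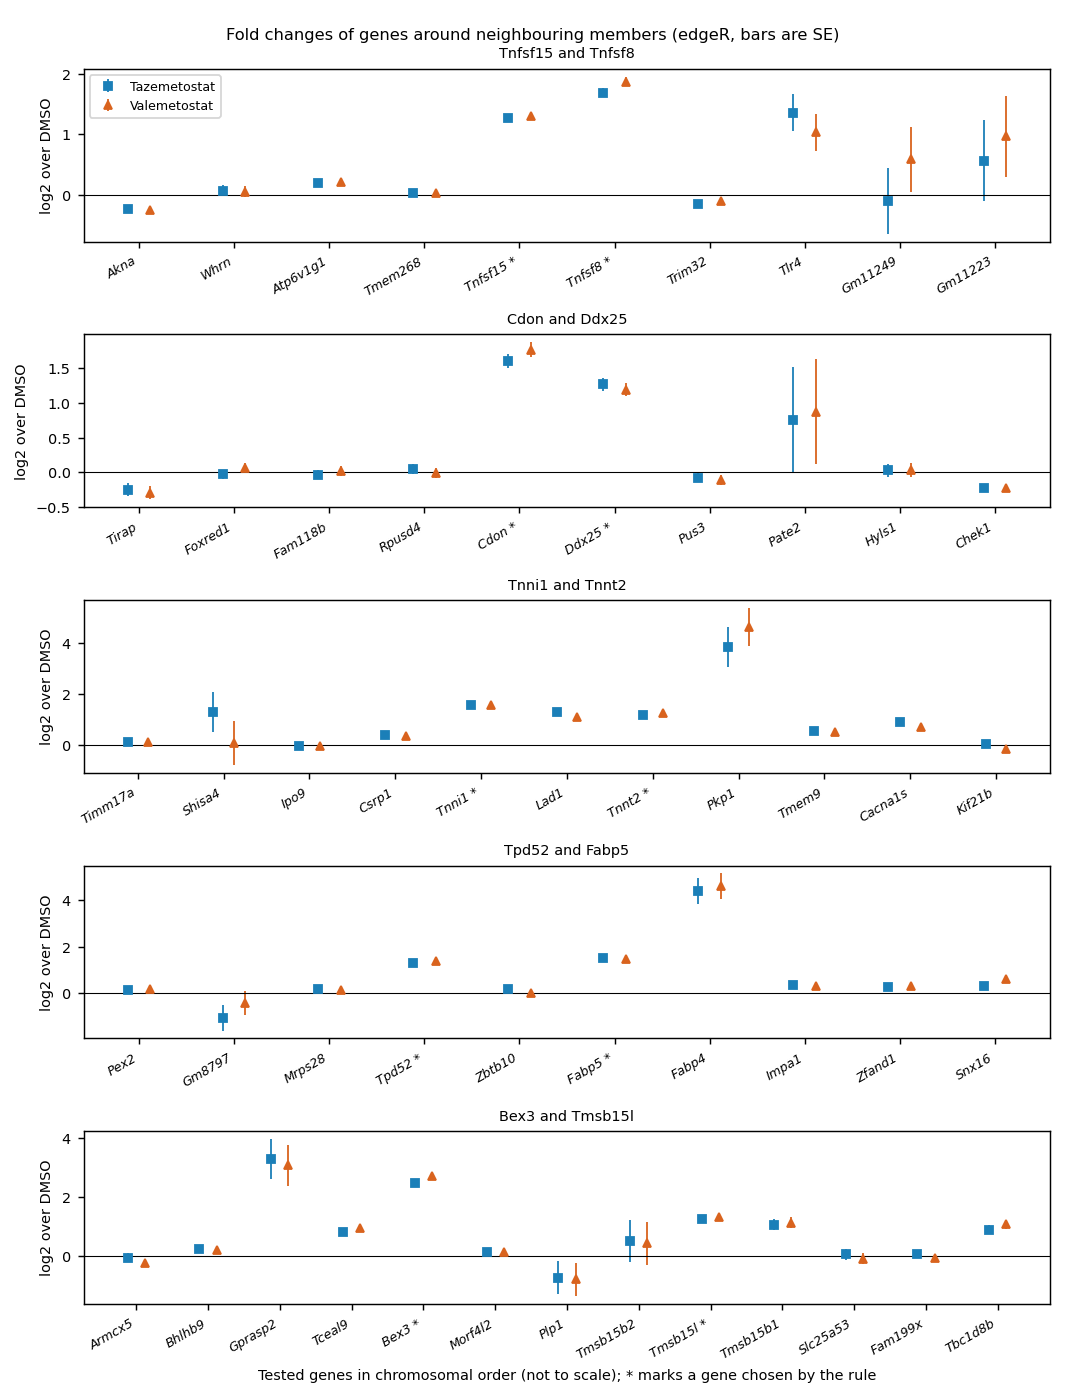
Log2 fold change over DMSO (vertical axes, edgeR, bars are SE) of tested genes in chromosomal order around 5 pairs of the 62 genes, which are marked by asterisks; squares are tazemetostat and triangles valemetostat. Near Tnni1 and Tnnt2 several other genes are also higher (Lad1 at 1.28 with tazemetostat), Tlr4 is higher near Tnfsf8, and the genes beside Cdon and Ddx25 are near 0.

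The nearest tested genes on either side of the 62, themselves outside the 62, numbered 118. With tazemetostat 50 of them (42.4%) were called higher and 9 (7.63%) lower, against 19.9% and 18.2% of all tested genes. With valemetostat 48 (40.7%) were higher and 10 (8.47%) lower, against 20.5% and 18.7%. At least 2-fold rises were found in 19 neighbours (16.1%) with tazemetostat and 18 (15.3%) with valemetostat, where 5.53% and 5.37% of all tested genes had them. With both inhibitors these include Lgals3bp, which met both thresholds (ratio 2.01) and was left out by symbol alone, so its rise follows from the rule. On log2(TPM + 1) with limma the counts of higher neighbours fell to 31 (26.3%, against 9.36% of tested genes) and 30 (25.4%, against 9.47%). Without valemetostat library 2, 5 neighbours in place of 10 were called lower with valemetostat. None of the 118 differed between the inhibitors at the adjusted threshold in edgeR or DESeq2, and 6 did at an unadjusted p under 0.05 in edgeR. The comparisons share the DMSO libraries, and reads from overlapping neighbours could not be separated here.

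Of the 50 neighbours called higher with tazemetostat, 13 had a mean under 1 CPM under DMSO, and the median DMSO level of the 50 was 18.5 CPM. All 13 were among the 19 with a rise of at least 2-fold, and 10 of these 19, those with the largest log2 fold changes with tazemetostat, are described here. Fabp4, a fatty acid binding protein next to Fabp5, was at 0.0428, 0.0587 and 0.0562 CPM under DMSO, at 0.954, 1.34 and 1.08 under tazemetostat and at 1.23, 1.21 and 1.49 under valemetostat. Tspan13, a tetraspanin gene next to Ahr, was at 0.15, 0.0587 and 0 CPM under DMSO, at 1.80, 1.18 and 1.27 under tazemetostat and at 1.38, 1.03 and 1.09 under valemetostat. Impg1, a retinal matrix gene next to Myo6, was at 0, 0.0293 and 0.112 CPM under DMSO, at 0.672, 0.81 and 0.718 under tazemetostat and at 1.07, 1.12 and 1.57 under valemetostat. These genes stayed under 2 CPM in every library, although their log2 fold changes were large (4.39 ± 0.55 with tazemetostat and 4.59 ± 0.55 with valemetostat for Fabp4). Pkp1, a desmosomal plakophilin next to Tnnt2, had log2 fold changes of 3.83 ± 0.78 with tazemetostat and 4.62 ± 0.76 with valemetostat. Car3, a carbonic anhydrase next to Car13, had 0 counts under DMSO and was at least 17.0-fold higher with tazemetostat and at least 19.3-fold with valemetostat, against a floor of 3 counts over the DMSO group (0.0258 CPM). Serpina3n next to Serpina3g also had 0 counts under DMSO and was at least 14.2-fold and 7.70-fold higher, with 0 counts in valemetostat library 2. Car3 and Serpina3n are relatives of the gene beside them, as are Fabp4 and Abca9, so values this low are uncertain. Rai14, an actin-associated gene next to Amacr, was at 0.536, 0.293 and 0.505 CPM under DMSO, at 3.97, 2.50 and 3.75 under tazemetostat and at 2.32, 3.33 and 2.91 under valemetostat. Gbp5, a guanylate-binding protein next to Pdlim5, had log2 fold changes of 2.90 ± 0.28 with tazemetostat and 2.62 ± 0.28 with valemetostat. Astn1, a neuronal gene next to Pappa2, had 2.09 ± 0.45 with tazemetostat and 2.53 ± 0.45 with valemetostat. In Rai14, Gbp5 and Astn1 the DMSO libraries lay below all inhibitor libraries. Abca9, an ABC transporter next to Abca5, was called with tazemetostat at 2.47 ± 0.89 (edgeR adjusted p = 0.0296) and had 1.48 ± 0.97 (edgeR adjusted p = 0.239) with valemetostat.

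Wider gene lists were read for non-members only, in the same fit, in which 19.9% of all tested genes were called higher and 18.2% lower with tazemetostat, and 20.5% and 18.7% with valemetostat. Among 12 tested PRC2 subunits none was called higher and 4 were called lower with each inhibitor, namely Mtf2, Lcor, Suz12 and Phf19, with a list median of -0.05 with tazemetostat and -0.08 with valemetostat (edgeR). No PRC2 gene was called higher by DESeq2 either, and at an unadjusted p under 0.05 in edgeR 1 was higher with tazemetostat and 0 with valemetostat. Suz12, a core subunit, fell by 0.18 on the log2 scale with tazemetostat. Of 21 PRC1 subunits beside the member Pcgf5, 6 were higher and 5 lower with tazemetostat, and 5 and 5 with valemetostat. The calls of this list were split in direction. Bmi1, a subunit of canonical PRC1, was at 69.8 CPM under DMSO and at 112 and 114 CPM with the inhibitors, log2 fold changes of 0.71 ± 0.06 and 0.73 ± 0.06. Of 11 H3K27 demethylases and partners of COMPASS-like complexes none was called higher by edgeR or DESeq2, and 5 were lower with tazemetostat and 6 with valemetostat in edgeR; at an unadjusted p under 0.05, 1 and 0 were higher. Kmt2d, a histone H3 lysine 4 methyltransferase, fell by 0.67 with tazemetostat and by 0.74 with valemetostat on the log2 scale.

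Of 9 tested genes known as EZH2-repressed in germinal centre B cells, 2 were called higher and 1 lower with each inhibitor, with medians of 0.04 and 0.00. Gpr183, a chemoattractant receptor that positions B cells, had log2 fold changes of 0.39 ± 0.06 and 0.56 ± 0.06, while Irf4 fell by 0.29 and by 0.30. In the TNF superfamily, to which Tnfsf8 belongs, 12 of 22 other tested genes were higher and 1 lower with tazemetostat, and 9 and 2 with valemetostat (medians 0.27 and 0.23). Tnfsf4, the ligand of OX40, was at 2.31 CPM under DMSO and 7.32 and 5.87 CPM with the inhibitors. Tnf fell by 0.77 and by 1.05 on the log2 scale. The higher calls outnumbered the lower ones in this family with both inhibitors. Of 41 adhesion, integrin and tetraspanin genes beside Itga3, 16 were higher and 6 lower with tazemetostat, and 19 and 3 with valemetostat (medians 0.16 and 0.21). Selplg, the ligand of P-selectin, had log2 fold changes of 0.83 ± 0.06 and 0.73 ± 0.06, and Alcam fell by 0.93 and by 0.89.

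Of 31 cytokine and chemokine receptors, 14 were higher and 9 lower with tazemetostat, and 16 and 6 with valemetostat (medians 0.17 and 0.21). Tgfbr1 had log2 fold changes of 0.82 ± 0.04 and 0.80 ± 0.04, and Tgfbr2, the partner chain for the TGF-β in the medium, fell by 0.54 and by 0.48. The chains of the TGF-β receptor moved in opposite directions. Of 36 other regulators of MAP kinase, Ras and cytokine signals, a list of mostly inhibitors that also holds the Ras exchange factors related to Rasgrp4, 12 were higher and 7 lower with tazemetostat, and 11 and 8 with valemetostat (medians 0.11 and 0.01). Both of these lists held calls in both directions. Cish, in the latter list, met both thresholds of the rule and was left out by symbol alone, so its higher calls follow from the rule. Of 34 PI3K and phosphoinositide genes, 8 were higher and 12 lower, and 6 and 14 (medians -0.07 and -0.07). Pik3r1, a regulatory subunit of PI3K, had log2 fold changes of 0.88 ± 0.08 and 0.82 ± 0.08. Of 40 lymphoid transcription factors beside Tox, 10 were higher and 9 lower, and 9 and 14 (medians -0.03 and -0.07). Klf7, a Krüppel-like factor, was at 1.08 CPM under DMSO and at 7.74 and 6.19 CPM with the inhibitors.

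Markers of other cell types were read beside these values because several of the 62 genes are best known from other lineages. The B cell markers were present in all 9 libraries except Cr2, with Cd79a, a chain of the B cell receptor, between 281 and 349.6 CPM; 5 of 10 were called higher and 1 lower with each inhibitor, and their summed level ran from 2970 to 3197 CPM under DMSO, 3349 to 3385 CPM with tazemetostat and 3475 to 3652 CPM with valemetostat. Of the T cell markers Cd2 was at 0 counts in all libraries and Cd3e at most at 0.306 CPM, while Cd5 at 20.3 to 25.3 CPM and Cd28 at 36.3 to 60.8 CPM were present in every library; 2 of 7 tested (Cd28 and Thy1) were higher with each inhibitor, and the sum ran from 58.5 to 64.0 CPM under DMSO, 82.3 to 84.1 with tazemetostat and 76.5 to 82.7 with valemetostat. Of the myeloid markers Cd14 and S100a8 were at 0 throughout; 3 of 5 tested (Adgre1, Lyz2 and Mrc1) were higher and Csf1r lower with each inhibitor, and the sum ran from 30.1 to 34.1, 30.1 to 34.4 and 28.3 to 31.6 CPM. Most of that sum was Csf1r, whose mean CPM was 29.0 under DMSO and 21.4 and 20.8 with tazemetostat and valemetostat. Adgre1 had means of 2.83, 8.18 and 7.02 CPM in the same order, Lyz2 of 0.0241, 1.33 and 1.31 CPM and Mrc1 of 0.0553, 0.775 and 0.743 CPM. Of the stromal, endothelial and epithelial markers, Col1a2 was at 0 throughout and 0 of 4 tested were called at the adjusted threshold with either inhibitor in edgeR or DESeq2 (1 with tazemetostat and 0 with valemetostat at an unadjusted p under 0.05 in edgeR); their sum ran from 2.66 to 4.70 CPM under DMSO, 3.45 to 6.09 with tazemetostat and 4.49 to 5.30 with valemetostat. The part of these marker genes in the results on the 62 genes was not tested.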

How the data were processed

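RNA from 9 libraries was measured. The authors deposited whole-number counts per gene and a second table of log2 values. Raising 2 to these deposited log2 values and subtracting 1 gives whole hundredths in 100% of values (tolerance 1e-06), so they were read as log2(TPM + 1). Per the submitters' processing notes the genome build was mm9. Aligner, counting program, annotation and strand setting: not given in the sources used here. A GENCODE M21 reference on another build gave gene order, lengths and exon overlaps only.

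CPM used column sums. Counts were tested with edgeR 4.0.16 in R 4.3.3 (TMM scaling, robust quasi-likelihood F test, filterByExpr with a minimum count of 10 and total of 15, 1 fit of 9 libraries); calls needed an adjusted p (Benjamini-Hochberg) under 0.05. The test was tried on simulated data. SE was taken as |log2 fold change| divided by √F. No replicate pair agreed within sampling noise (chi-square per degree of freedom 5.29 to 13.7). Rows without a symbol (1329) held at most 0.00131% of a library's counts. Alternatives were DESeq2 1.42.0, other scalings and filters, limma 3.58.1 on the log2 values, a replicate term, fits of the compared pair of groups, and fits without each library. A length and GC offset was added after the data were seen.

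The 62 genes, the role groups and the gene lists were chosen with earlier results of these data known. Values in every library were to be given for the 10 genes of highest ratio, the 8 of highest DMSO TPM, those nearest the thresholds, members called between the inhibitors, members in a list and up to 10 neighbours; up to 4 called genes were eligible for naming per list. Others shown in full (Tnfsf15, Ccr4, Il1r2, Ahr, Tnnt2, Olfm4, Nabp1 and Lmna) were picked after their values were seen. The labels mention no molecular identifiers, so a read may not stand for a molecule of its own, and the floor of 3 counts allows for counting error alone. Some of the values computed are not reported here.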

Additional observations from a re-analysis of the deposited data

How the results depend on the processing

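The number of genes chosen was 62 and depended on the thresholds: a ratio of 1.5 gave 101 and a ratio of 2 gave 32, a DMSO floor of 2 CPM gave 118, and the same rule on TPM gave 35, of which 26 were shared with the 62. A floor of 10 CPM gave 42 and TMM-scaled CPM 64, and leaving out 1 library gave 62 to 72. Leaving out a library cannot lower a gene's ratio, so this last range is no check of the choice. Genes called between valemetostat and tazemetostat numbered 40 over the whole table. They were 93 with no filter, 75 with DESeq2, 80 with the length and GC offset and 1 with limma on log2(TPM + 1); leaving out 1 library gave 9 (without valemetostat library 2) to 73 (without tazemetostat library 3), with 11 and 19 without tazemetostat libraries 1 and 2 and 13 without valemetostat library 1. Of the 62 genes, 0 were called in that comparison, 1 with no filter (Abca5), 2 with DESeq2 (Abca5 and Nabp1), 1 with the compared groups alone (Abca5) and 3 with the offset (Abca5, Nabp1 and Olfm4); leaving out 1 library gave 0 to 1, Abca5 being called without DMSO library 1 or 3. The cause of these differences was not tested. Called genes for tazemetostat against DMSO numbered 4794, and 3123 with limma on log2(TPM + 1). On that scale 37.7% of calls with tazemetostat and 36.0% with valemetostat were higher, where edgeR gave 52.3% for each. Between the inhibitors, 56 of 1116 setting-by-gene values of the 62 genes had the opposite sign, none of them called. With the replicate number as a block, 32 genes were called between the inhibitors, 4527 for tazemetostat and 4713 for valemetostat against DMSO; 0 of the 62 were called between the inhibitors, and 49 and 48 neighbours were higher. Same-numbered libraries correlated from -0.22 to 0.239 in their deviations and did not each correlate best with their own number. Whether same-numbered libraries share a culture or a batch is not given, and these few correlations cannot decide it.

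Each group has 3 libraries, doses are not given, and the rule made both comparisons with DMSO descriptive. Counts of overlapping genes (Arhgef40, Rasgrp4, Serpinb6a and Tmsb15l) are uncertain, and low neighbours such as Car3 and Impg1 rest on few counts.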

Other observations

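The 62 genes were spread over most chromosomes. Chromosome 3 held 10 of them among 586 tested genes, chromosome 1 held 7 of 753 and chromosome 5 held 0 of 794; chromosome 3 includes Vcam1, Fabp5, Tpd52, Car13, Pdlim5 and F3. Lowering the DMSO floor from 5 to 2 CPM raised the number of genes from 62 to 118.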
